A study of Homo sapiens with 11 samples.

Results

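The genes described here are ATG7 and 9 other core autophagy genes, ATG3, ATG5, ATG10, ATG12, ATG13, ATG16L1, SQSTM1, MAP1LC3B and BECN1. They were picked out by gene name, and all 10 were found among the 57773 genes of the expression table. The data come from HCC78, a lung adenocarcinoma cell line with an SLC34A2-ROS1 fusion, and were made to compare wild-type U2AF1 with its S34F mutant. U2AF1 is the splicing factor subunit that recognizes the AG at the 3′ end of introns, and S34F is a recurrent substitution in it. RNA was sequenced from 9 libraries. Both transduced lines were stable and carried a doxycycline-inducible lentiviral construct for FLAG- and HA-tagged U2AF1. The wild-type line was sequenced with doxycycline (WT dox+, 2 replicates) and without it (WT dox-, 2 replicates). The S34F line was sequenced with doxycycline (S34F dox+, 2 replicates) and without it (S34F dox-, 1 library). The parental line gave 2 libraries, labelled as without doxycycline, although a supplementary header of the study gives it as with doxycycline.

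All groups carried S34F transcripts. According to the sample labels, S34F made up 32% of U2AF1 mRNA in the parental line, 33% in WT dox- and 28% in S34F dox-. It made up 12% and 14% in the WT dox+ replicates and 62% and 65% in the S34F dox+ replicates. Comparisons of S34F dox+ with WT dox+ were therefore comparisons of a higher with a lower share of mutant transcript. These groups also differ in the transduced line and in the total level of U2AF1 mRNA, given below. Mutant share, line and total level cannot be told apart in these comparisons. No source says that replicates were separate cultures, so the p-values measure the spread between these libraries, which may be technical.

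Autophagy encloses cytoplasm in a double membrane, the autophagosome, which then fuses with the lysosome. Its membrane grows through a pair of conjugation reactions that resemble ubiquitination. ATG7 is the E1-like enzyme of both: it hands ATG12 to the E2-like enzyme ATG10, which joins it to ATG5, and it hands LC3, encoded by MAP1LC3B among others, to the E2-like enzyme ATG3, which joins it to a membrane lipid. In other cells carrying U2AF1 S34F, altered 3′ end processing of ATG7 mRNA has been described. Gene-level values and splice junctions do not measure the position of 3′ ends.

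The expression table holds FPKM, fragments scaled to transcript length and to the size of the library, and no counts, so the depth behind each value is unknown. FPKM of U2AF1 was between 103 and 115 in the 5 libraries without induction, with WT dox+ at 278 and 299 and S34F dox+ at 164 and 223. Between 13661 and 14688 genes reached 1 FPKM in the libraries without induction, and 16053 and 17716 did so in WT dox+. The number was 15736 in S34F dox+ replicate 1 and 20896 in replicate 2, which stood apart from the other 8 libraries. All 10 epithelial and lung adenocarcinoma markers averaged at least 1 FPKM, and their summed level was 8530 to 11600 FPKM per library. Of 6 fibroblast markers 2 had a mean of at least 1 FPKM, with summed levels of 3.57 to 13.4. Of 6 leukocyte markers 2 did, with sums of 15.8 to 36.6, mostly from CD68, and of the 3 endothelial markers found in the table none did, with sums of 0.38 to 2.99.

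ATG7 (ENSG00000197548.8) was measured at a mean of 14.1 FPKM over the 9 libraries. It was 9.45 and 12.3 FPKM in the parental line, 13.6 and 14.8 in WT dox-, and 15.7 in S34F dox-, with WT dox+ at 15.4 and 13.4 and S34F dox+ at 17.2 and 15.2. Both parental libraries were below all 7 libraries of the transduced lines, and the 4 groups of transduced cells lay close to each other. The S34F dox+ replicates overlapped with the WT dox+ replicates. In order of the group means, the parental line (10.9 ± 1.99, SD, n = 2) was followed by WT dox- (14.2 ± 0.841, n = 2), WT dox+ (14.4 ± 1.39, n = 2), the single S34F dox- library (15.7) and S34F dox+ (16.2 ± 1.40, n = 2). From WT dox- upwards, neighbours in this order differed by less than the spread between replicates, or had no spread of their own.

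Induced S34F and induced wild-type U2AF1 gave ATG7 levels that the test did not separate. The log2 fold change of S34F dox+ against WT dox+ was 0.16 with a standard error of 0.16 and a 95% interval of -0.22 to 0.54 (limma, adjusted p = 0.901). This interval holds no change as well as falls down to -0.22 and rises up to 0.54 on the log2 scale. Without S34F dox+ replicate 2, the library that stood apart, the log2 fold change was 0.24, and it was 0.074 without S34F dox+ replicate 1 and 0.065 without WT dox+ replicate 2. Fold changes here and below are on the scale of log2(FPKM + 1), which understates changes of low genes.

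Doxycycline in the wild-type line left ATG7 at a log2 fold change of 0.02, with an interval of -0.36 to 0.41 (limma, adjusted p = 0.972). The response of the S34F line minus that of the wild-type line was 0.02 for ATG7, with an interval of -0.59 to 0.62 (limma, adjusted p = 1.0). The largest ATG7 difference among the comparisons was between WT dox- and the parental line, at 0.36 with a standard error of 0.16 and an interval of -0.02 to 0.74. This difference did not pass the correction (limma, unadjusted p = 0.0595, adjusted p = 0.427), and it was 0.19 without parental replicate 1 and 0.54 without parental replicate 2. The transduced line and the parental line differ in the construct and in their history in culture, which cannot be told apart here.

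**Figure D1:**
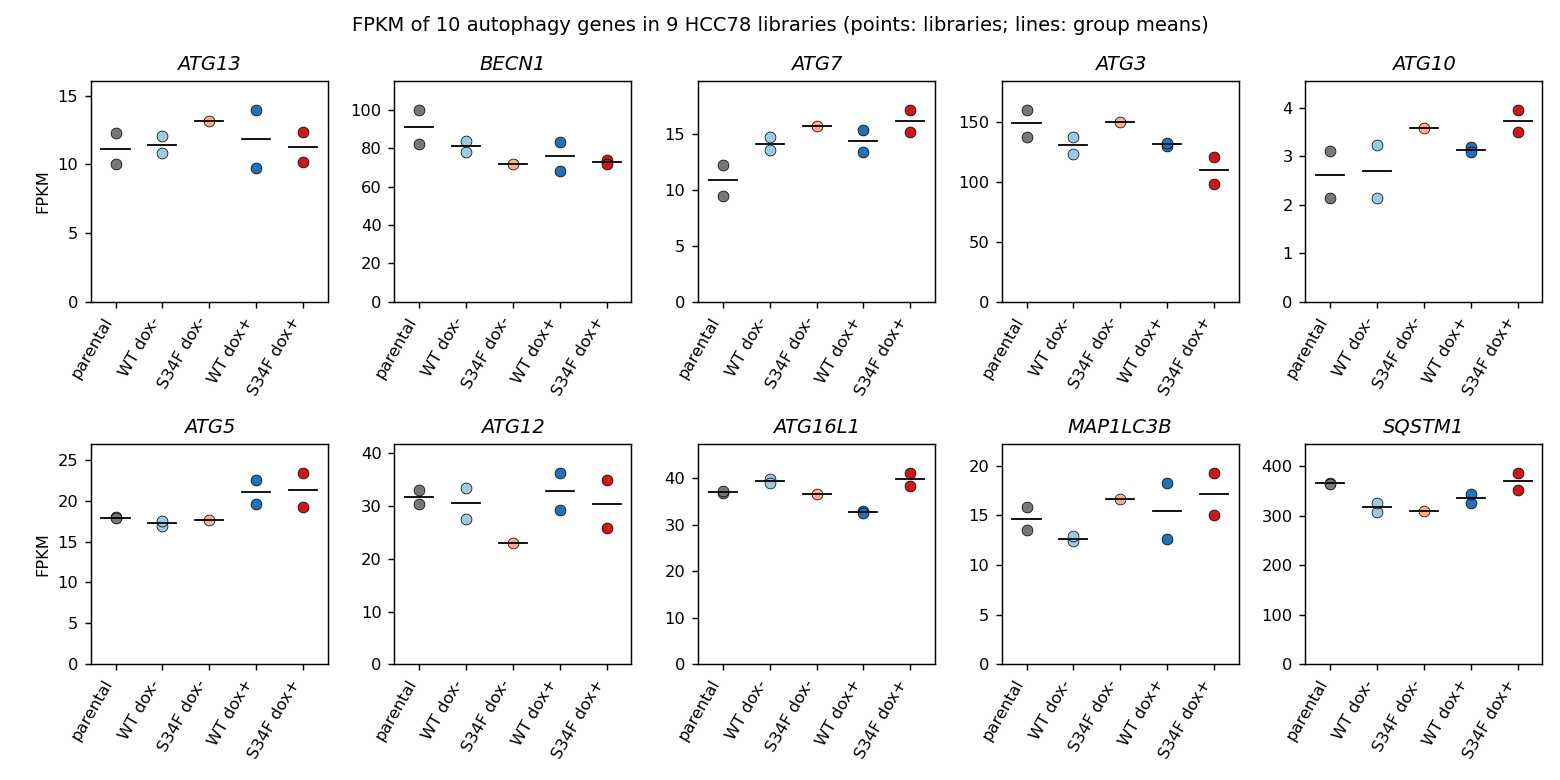
FPKM of the 10 autophagy genes (vertical axes, linear, from 0) in each of the 9 libraries, by group (horizontal axes); points are libraries and lines are group means. SQSTM1 lies between 307 and 387 FPKM, ATG10 between 2.13 and 3.96, and for ATG7 both parental libraries lie below the other 7.

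The other conjugation enzymes differed widely in level. ATG3, the E2-like enzyme of the LC3 branch, was the second most abundant of the 10 transcripts, at a mean of 132 FPKM. It was 160 and 137 FPKM in the parental line, 137 and 123 in WT dox-, and 150 in S34F dox-, with WT dox+ at 130 and 132 and S34F dox+ at 121 and 97.8. Both S34F dox+ libraries were below the other 7 libraries, and replicate 2 was the lower. ATG3 had a log2 fold change of -0.27 in S34F dox+ against WT dox+, with an interval of -0.58 to 0.05, and did not pass the test (limma, unadjusted p = 0.0883, adjusted p = 0.765). Without S34F dox+ replicate 2 the value was -0.11, and without replicate 1 it was -0.42.

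ATG10, the E2-like enzyme of the ATG12 branch, was the least abundant of the 10, at a mean of 3.10 FPKM. It was 2.13 and 3.10 FPKM in the parental line, 3.24 and 2.14 in WT dox-, and 3.59 in S34F dox-, with WT dox+ at 3.19 and 3.09 and S34F dox+ at 3.96 and 3.50. The S34F dox+ libraries were above those of WT dox+, but the S34F dox- library was in the same range. The log2 fold change of S34F dox+ against WT dox+ was 0.19, and the interval, -0.39 to 0.78, was the widest of the 10 genes (limma, adjusted p = 0.923). Without S34F dox+ replicate 1 the value was 0.12.

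ATG12, the ubiquitin-like protein, and ATG5, its acceptor, had means of 30.4 and 19.2 FPKM. ATG12 was 33.1 and 30.4 FPKM in the parental line, 33.5 and 27.6 in WT dox-, and 23.0 in S34F dox-, with WT dox+ at 29.3 and 36.4 and S34F dox+ at 25.9 and 35.0. The 2 dox+ groups overlapped, and the S34F dox- library was the lowest of the 9. ATG5 was 18.0 and 17.9 FPKM in the parental line, 16.9 and 17.5 in WT dox-, and 17.6 in S34F dox-, with WT dox+ at 19.5 and 22.5 and S34F dox+ at 23.4 and 19.3. All 4 dox+ libraries had more ATG5 than the 5 libraries without doxycycline, and the 2 dox+ groups overlapped. The log2 fold change of ATG5 with doxycycline was 0.27 in the wild-type line, with an interval of -0.06 to 0.60 (limma, adjusted p = 0.428), and 0.26 in the S34F line, a value that rests on 1 library without doxycycline. In the wild-type line it was 0.17 without WT dox+ replicate 2.

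ATG16L1 binds the ATG12-ATG5 conjugate and places it on the membrane. It was 36.8 and 37.2 FPKM in the parental line, 39.8 and 38.9 in WT dox-, and 36.7 in S34F dox-, with WT dox+ at 32.9 and 32.5 and S34F dox+ at 41.3 and 38.4. The WT dox+ replicates were the 2 lowest of the 9 libraries, while the S34F dox+ replicates were in or just above the range of the uninduced libraries. The difference between the dox+ groups was 0.28 on the log2 scale, with a standard error of 0.10 and an interval of 0.03 to 0.52. It was the only one of the 10 genes with an unadjusted p under 0.05 in that comparison, and it did not pass the correction over all genes (limma, unadjusted p = 0.0311, adjusted p = 0.683). ATG16L1 was also the only one of the 10 with an unadjusted p under 0.05 in WT dox+ against WT dox-, at -0.26 with an interval of -0.50 to -0.02 (limma, unadjusted p = 0.0395, adjusted p = 0.325). These comparisons share the WT dox+ libraries. The difference of the doxycycline responses was 0.37, with an interval of -0.01 to 0.76 (limma, unadjusted p = 0.0556, adjusted p = 1.0).

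Of the genes that act before conjugation, ATG13 is a subunit of the ULK1 kinase complex that starts autophagy, and BECN1 is a subunit of the class III phosphatidylinositol 3-kinase complex. ATG13 was 10.0 and 12.3 FPKM in the parental line, 12.1 and 10.8 in WT dox-, and 13.1 in S34F dox-, with WT dox+ at 9.72 and 14.0 and S34F dox+ at 10.2 and 12.4. Its replicates differed by as much as its groups. BECN1 was 100.0 and 82.2 FPKM in the parental line, 77.8 and 83.9 in WT dox-, and 71.5 in S34F dox-, with WT dox+ at 68.2 and 83.2 and S34F dox+ at 74.1 and 71.7. Its highest value was in a parental library, and both S34F dox+ values lay between those of WT dox+. The log2 fold changes of S34F dox+ against WT dox+ were -0.05 for both genes, with intervals of -0.53 to 0.42 for ATG13 and -0.37 to 0.28 for BECN1.

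MAP1LC3B, whose product is the LC3B protein that coats autophagosomes, was measured at a mean of 15.2 FPKM. It was 13.5 and 15.8 FPKM in the parental line, 12.4 and 12.9 in WT dox-, and 16.7 in S34F dox-, with WT dox+ at 18.2 and 12.6 and S34F dox+ at 19.3 and 15.03. The 2 dox+ groups overlapped, and in both of them replicate 1 had the higher value. SQSTM1 encodes p62, a receptor that carries ubiquitinated cargo to LC3, and was the most abundant of the 10 at a mean of 342 FPKM. It was 366 and 365 FPKM in the parental line, 307 and 326 in WT dox-, and 310 in S34F dox-, with WT dox+ at 325 and 344 and S34F dox+ at 387 and 351. The parental and S34F dox+ libraries were the 4 highest, and the groups S34F dox+ and WT dox+ did not overlap. The log2 fold changes of S34F dox+ against WT dox+ were 0.14 for SQSTM1, with an interval of -0.09 to 0.36, and 0.16 for MAP1LC3B, with an interval of -0.31 to 0.63. For SQSTM1 the value was 0.067 without S34F dox+ replicate 1.

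SQSTM1 varied least over the 9 libraries, with a highest value 1.26 times its lowest, and ATG10 varied most, at 1.86 times. Of the 9 autophagy genes that averaged at least 5 FPKM, 7 had a ratio of highest to lowest value at or below 1.60, the median over the 10024 genes at that level. ATG3, at 1.63, and ATG7, at 1.82, were above it.

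Taking the 10 genes as a group, none was called in S34F dox+ against WT dox+ by limma at an adjusted p under 0.05, where 0.0527% of the 15179 genes tested were called (8 genes). At an unadjusted p under 0.05 (6.78% of all genes), 1 of the 10 passed as higher, where 4.01% of all genes did, and none as lower, where 2.77% did. The fold change was positive for 6 genes and negative for 4, with a median of 0.08 against 0.03 over all genes tested. The libraries of the 2 groups did not overlap for ATG10, ATG16L1 and SQSTM1, which were higher in S34F dox+, and for ATG3, which was lower, and 35.8% of all genes did not overlap. None was called without S34F dox+ replicate 2 either.

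None of the 10 genes was called in WT dox+ against WT dox- (limma), where 0.0132% of all genes were called. Their fold changes ran from -0.26 to 0.27 on the log2 scale, 8 positive and 2 negative. At an unadjusted p under 0.05 (14.4% of all genes), none of the 10 passed as higher, where 8.8% of all genes did, and 1 as lower, where 5.59% did. The groups did not overlap for ATG5, which was higher with doxycycline, and ATG16L1, which was lower, where 49.6% of all genes did not overlap.

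None of the 10 was called in the difference of the responses (limma), where 0.0264% of all genes were called, and none passed at an unadjusted p under 0.05, where 3.42% of all genes did (2.21% as higher and 1.21% as lower). The values farthest from 0 with unadjusted p under 0.1 were those of ATG3, at -0.47 with an interval of -0.97 to 0.03, and ATG16L1, given above. For ATG3 the response to doxycycline was -0.46 in the S34F line and 0.01 in the wild-type line. The S34F line is represented without doxycycline by 1 library, whose spread was taken from the other groups.

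None of the 10 was called in WT dox- against parental (limma), where 0.0988% of all genes were called, and none passed at an unadjusted p under 0.05, where 12.3% of all genes did (5.79% as higher and 6.54% as lower). The fold changes ran from -0.21 for SQSTM1 to 0.36 for ATG7. The groups did not overlap for ATG7 and ATG16L1, which were higher in WT dox-, and for ATG5, SQSTM1 and MAP1LC3B, which were lower, and 44.0% of all genes did not overlap. SQSTM1 had an interval of -0.43 to 0.02 (limma, unadjusted p = 0.0642, adjusted p = 0.439).

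**Figure D2:**
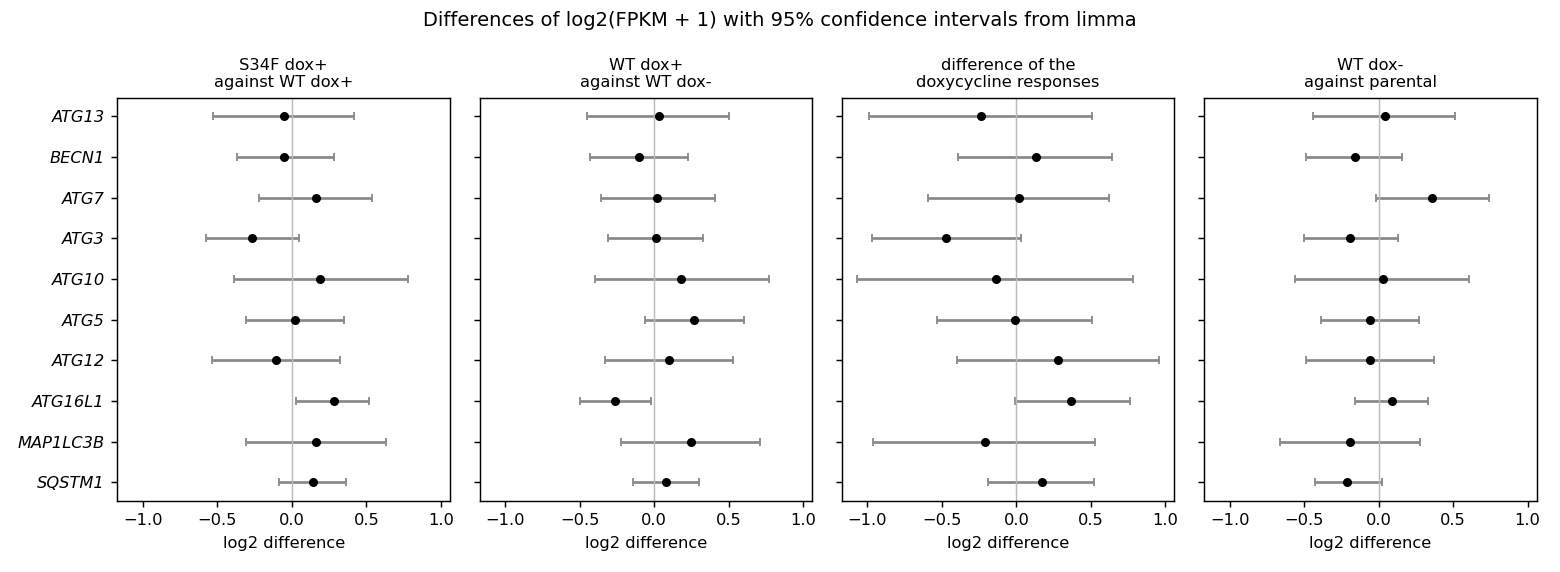
Log2 fold changes of the 10 autophagy genes on the scale of log2(FPKM + 1) (horizontal axes) in the 4 comparisons; points are limma estimates, bars are 95% intervals and the vertical line marks 0. The interval of ATG16L1 lies above 0 in S34F dox+ against WT dox+ and below 0 in WT dox+ against WT dox-, without correction over all genes.

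A wider list of 87 autophagy and lysosome genes, the 10 left out, was set against the same comparisons, and 84 of them reached a mean of 1 FPKM. In S34F dox+ against WT dox+ none was called (limma), and the smallest adjusted p was 0.545. Without adjustment, 10 had a p under 0.05, or 11.9%, against 6.78% of all genes, and of these 6 had a positive and 4 a negative fold change. The fold change was positive for 49 and negative for 35 genes, with a median of 0.03, near the 0.03 of all genes. In WT dox+ against WT dox- none was called, and without adjustment 7 with a positive and 4 with a negative fold change had a p under 0.05, or 13.1%, against 14.4% of all genes. In the difference of the responses none was called, and without adjustment 1 in each direction had a p under 0.05, or 2.38%, against 3.42% of all genes.

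By role, the medians of this list lay between -0.02 and 0.12 in S34F dox+ against WT dox+. The 4 tested genes of the ULK1 complex had a median log2 fold change of 0.09, the 7 of the phosphatidylinositol 3-kinase complex 0.01, and the 9 of ATG9 and lipid transfer 0.00. The 9 tested conjugation genes had a median of -0.02 and the 10 tested cargo receptors -0.01. The 13 genes of autophagosome fusion had a median of 0.08, the 16 lysosomal genes 0.12, and the 16 regulators of transcription and nutrient sensing 0.04. The genes with a positive fold change and an unadjusted p under 0.05 included CTSB, a lysosomal protease, at 0.33, and GABARAP, an LC3 relative, at 0.46.

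**Figure D3:**
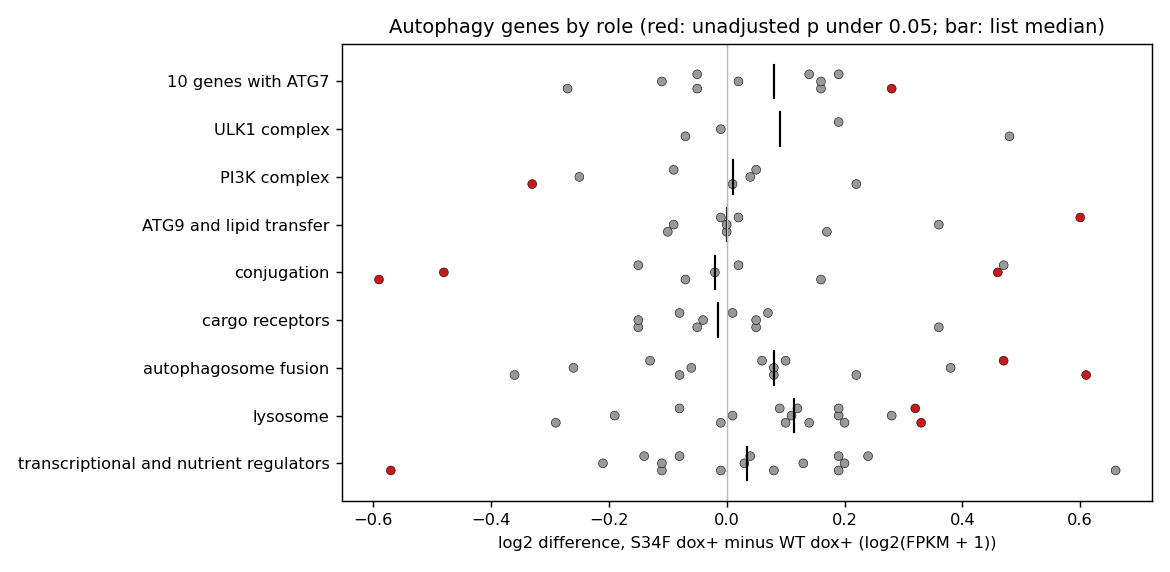
Log2 fold changes of S34F dox+ against WT dox+ on the scale of log2(FPKM + 1) (horizontal axis) for the 10 genes (top) and the 84 other autophagy and lysosome genes tested, by role (vertical axis); points are genes, in red where the unadjusted p is under 0.05, and vertical bars are medians. The medians of the other genes lie between -0.02 for conjugation and 0.12 for the lysosome.

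The genes of this list with the largest differences and no overlap between the dox+ groups included a pair of ATG4 proteases, which process LC3 for conjugation and release it from membranes. ATG4C was 9.08 and 8.27 FPKM in WT dox+ against 5.31 and 5.52 in S34F dox+, a log2 fold change of -0.59. ATG4B was 29.2 and 33.5 FPKM in WT dox+ against 22.8 and 21.6 in S34F dox+, a log2 fold change of -0.48. Without induction, mean ATG4B was 23.9 in the parental line, 28.7 in WT dox- and 27.2 in S34F dox-. Mean ATG4C was 6.39, 7.11 and 7.78 in these groups. The related proteases ATG4A and ATG4D had log2 fold changes of -0.02 and -0.15 in S34F dox+ against WT dox+. MITF, a transcription factor related to TFEB, was 16.7 and 17.2 FPKM in WT dox+ against 8.96 and 13.6 in S34F dox+, a log2 fold change of -0.57. ATG4C, ATG4B and MITF did not pass the correction, with adjusted p of 0.545, 0.555 and 0.619 (limma). MITF differed between its S34F dox+ replicates, and its fold change was -0.29 without replicate 1 and -0.85 without replicate 2.

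In the other direction, VPS33A and VPS16 had values above those of WT dox+. They are subunits of the tethering complex that joins autophagosomes to lysosomes. Its other listed subunits went both ways. Their log2 fold changes were 0.38 for VPS11, 0.1 for VPS41, -0.26 for VPS39 and -0.36 for VPS18. VPS33A was 7.37 and 10.5 FPKM in WT dox+ against 13.9 and 14.0 in S34F dox+, a log2 fold change of 0.61. VPS16 was 6.98 and 7.57 FPKM in WT dox+ against 9.68 and 11.4 in S34F dox+, a log2 fold change of 0.47. Without induction, mean VPS16 was 9.38 in the parental line, 9.8 in WT dox- and 9.74 in S34F dox-, against 7.28 in WT dox+. Mean VPS33A was 9.81, 13.3 and 11.0 in these groups, against 8.91 in WT dox+. The WT dox+ mean was thus the lowest of the group means for both genes. WDR45, a phosphoinositide-binding protein, was 11.3 and 13.0 FPKM in WT dox+ against 15.3 and 23.2 in S34F dox+, a log2 fold change of 0.60. The adjusted p of VPS33A, VPS16 and WDR45 were 0.676, 0.619 and 0.639 (limma). The fold change of WDR45 was 0.31 without S34F dox+ replicate 2, and that of VPS33A was 0.39 without WT dox+ replicate 1. ATG4C, ATG4B, MITF, VPS33A, VPS16 and WDR45 come from the 15 higher and 9 lower genes without overlap among 75 that averaged at least 5 FPKM in the dox+ libraries. This is 32.0% of the 75, and 35.8% of all genes tested had no overlap.

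WT dox- against parental was the comparison in which this wider list lay lowest. Of the 84 genes, 56 had a negative and 28 a positive fold change, with a median of -0.08 against 0.00 over all genes. None was called (limma, smallest adjusted p 0.107), and without adjustment 2 genes with a positive and 9 with a negative fold change had a p under 0.05, or 13.1%, against 12.3% of all genes. The 9 included the lysosomal genes CTSD and HEXA and the cargo receptors OPTN, NBR1 and CALCOCO2. CTSD, the lysosomal protease cathepsin D, was 351 and 303 FPKM in the parental line, 139 and 187 in WT dox-, and 143 in S34F dox-, with WT dox+ at 232 and 213 and S34F dox+ at 230 and 194. Every library of the transduced lines was below both parental libraries. The log2 fold change of CTSD in WT dox- against parental was -1.01 (limma, adjusted p = 0.107), and it was called when only protein-coding genes were tested (limma, adjusted p = 0.0319). With that filter 58 of 11993 genes were called in this comparison, against 15 of 15179 in the main fit. Under the other alternatives the smallest adjusted p of the list in this comparison was 0.0718 to 0.472. The 2 genes with a positive fold change were MTOR, the nutrient-sensing kinase, at 0.58, and its partner RPTOR, at 0.32. Of the 10 epithelial and lung adenocarcinoma markers, SLC34A2, ROS1 and NAPSA had mean levels of 140, 32.0 and 8.68 FPKM in the parental line and 64.3, 15.1 and 3.40 in WT dox-, and NKX2-1 and KRT19 were lower by less, at 64.5 and 2190 against 55.7 and 1840. The other 5 were at the same or a higher mean in WT dox-, among them EPCAM at 528 in both and KRT7 at 3120 and 4180. The part of these markers in the result was not tested.

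The genes whose level followed ATG7 most closely were MICA, USP4, ZNF106, SLFN13 and DSE, with Pearson's r of log2(FPKM + 1) over the 9 libraries of 0.95, 0.94, 0.92, 0.91 and 0.91 among the 10023 other genes that averaged at least 5 FPKM. All 5 had their lowest group mean in the parental line, as ATG7 did. MICA, for example, had a mean of 13.2 FPKM in the parental line, 15.7 in WT dox-, 15.8 in S34F dox-, 15.9 in WT dox+ and 18.2 in S34F dox+. Of the autophagy genes, BECN1 had the r farthest from 0, at -0.87, and MAP1LC3B the highest, at 0.54. These are the top values of a search over many genes, the libraries share groups, and no p is given.

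Splicing was deposited as 1 comparison of S34F with wild-type U2AF1 for 5 kinds of event, without values per replicate, so the splicing differences have no replicate check. For each event the tables give PSI as estimated by MISO, the Bayes factor for a difference between conditions, and the reads. PSI was taken here as the share of transcripts with the first listed form, which is an assumption. An event was called where PSI differed by at least 0.10, with a Bayes factor of at least 5 and at least 10 reads. These values are those of the study's methods. Summing the reads over both conditions was a choice made here, which the methods do not state. The Bayes factor compares these samples as pooled and does not cover the spread between replicates. For the 10 autophagy genes 124 entries were listed, of which 4 were on the strand opposite to the gene and 1 had too few reads. The 119 used comprised 73 skipped exons, 17 NAGNAG sites (acceptor sites 3 bases apart), 13 alternative 3′ splice sites, 10 alternative 5′ splice sites and 6 retained introns.

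Of the 119 events 3 were called, in 2 of the 10 genes, which is 2.52% of these events, where 1.18% of all 87763 events were called. Of all 17650 genes with events, 6.16% had at least 1 called. PSI differed by at least 0.10, at any Bayes factor, in 35 events, or 29.4%, against 32.9% of all events. A Bayes factor of at least 1 was present in 22, or 18.5%, against 21.5%. The share of called events rests on 3 events, of which 2 are in ATG13 and share reads.

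**Figure D4:**
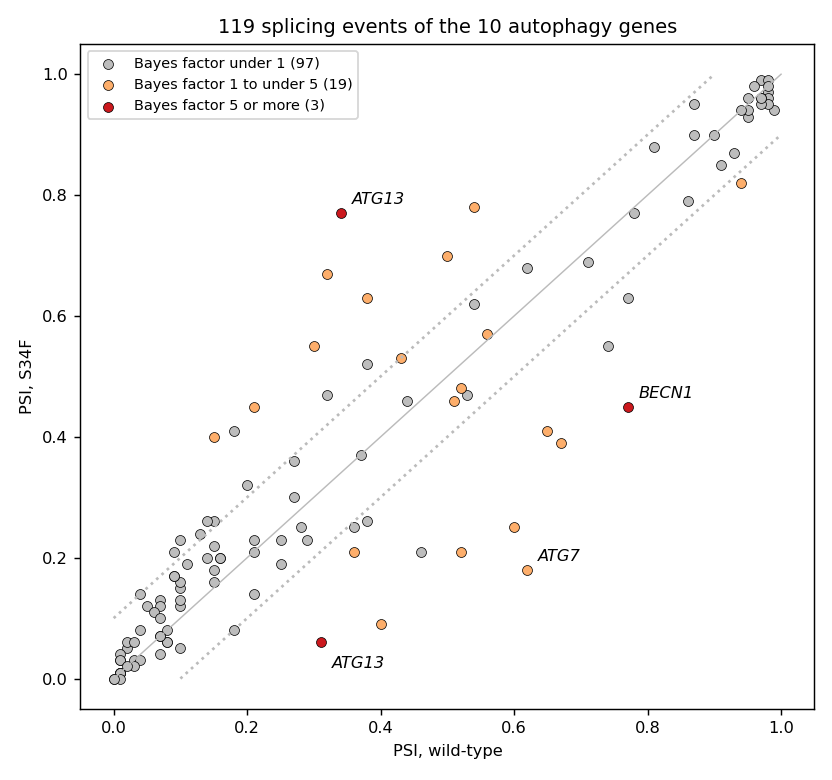
PSI with wild-type U2AF1 (horizontal axis) and with S34F (vertical axis) for the 119 splicing events of the 10 autophagy genes; each point is an event, the diagonal marks equal PSI, dotted lines a difference of 0.10, and colors the Bayes factor. The 3 called events are in red, an ATG13 exon above the diagonal and an ATG13 and a BECN1 exon below it, and the ATG7 event with the largest Bayes factor is also named.

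Both called ATG13 events are skipped exons at the 5′ end of the gene on the plus strand of chromosome 11, with coordinates on hg19. The first joins position 46639440 to an exon starting at 46651595, or skips it to 46665829. Its PSI was 0.77 with S34F and 0.34 with wild-type U2AF1, with a Bayes factor of 14.7 and 372 and 497 reads. The second lies just downstream and joins 46651650 to an exon starting at 46653873, or skips it to the same 46665829. Its PSI was 0.06 with S34F and 0.31 with wild-type, with a Bayes factor of 8.11 and 371 and 501 reads. In these events the inclusion of the upstream exon was therefore higher with S34F, and that of the downstream exon was lower. In an alternative 3′ splice site event, 46651650 is joined to 46653873 or 46653878. Its PSI for 46653873 was 0.41 with S34F and 0.18 with wild-type, at a Bayes factor of 0.84 and with 26 and 32 reads. The exon form starting at 46653878 had a PSI of 0.05 and 0.10, at a Bayes factor of 0.22. The use of 46653873 was thus lower with S34F in the called event, and the difference in the alternative 3′ splice site event was not resolved.

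The upstream ATG13 exon was also listed in other events, with other exons before it. From 46642707 its PSI was 0.63 with S34F and 0.38 with wild-type, with a Bayes factor of 1.52 and 27 and 23 reads. From 46639925 its PSI was 0.47 and 0.32, with a Bayes factor of 0.65 and 337 and 452 reads. All of these events had a higher PSI with S34F, but only the first passed the threshold. The first event is also listed under HARBI1.

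The called BECN1 event is on the minus strand of chromosome 17 (hg19) and joins 40966542, near the 5′ end of the listed transcript (40962306 to 40966611), to an exon starting at 40963815, or skips it to 40962946. Its PSI was 0.45 with S34F and 0.77 with wild-type U2AF1, with a Bayes factor of 6.87 and 179 and 259 reads. The same exon joined from 40965966 had a PSI of 0.87 with S34F and 0.93 with wild-type, with a Bayes factor of 0.59 and 975 and 1539 reads. This event was not called. The reads listed go with the listed transcript and not with the exon, since the events of the longer BECN1 transcript all carry between 952 and 975 reads with S34F, so they do not rank the support of the 2 events.

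**Figure D5:**
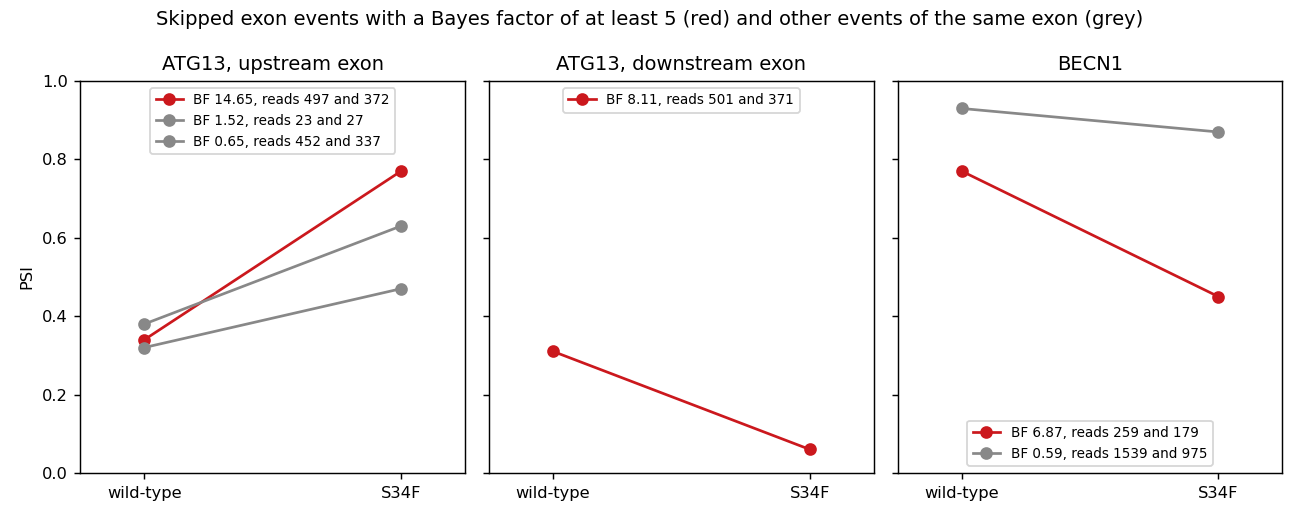
PSI (vertical axes, 0 to 1) of the 3 exons of the called events with wild-type U2AF1 and with S34F (horizontal axes); each line is an event that holds the exon, and legends give its Bayes factor and its reads with wild-type and then with S34F. The called events have Bayes factors of 14.7 and 8.11 for ATG13 and 6.87 for BECN1. Only skipped exon events are drawn, and the panel of the downstream ATG13 exon holds the called event alone.

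ATG7 had 18 events and none was called, with a largest Bayes factor of 2.42. The difference in PSI was at least 0.10 in 9 of the 18, and 11 of the 18 had a higher PSI with S34F. The event with the largest Bayes factor is a NAGNAG site on chromosome 3 (hg19), where 11372902 is joined to 11374446 or 11374449. The share joined to the first site was 0.18 with S34F and 0.62 with wild-type, with 432 and 694 reads. A skipped exon event at the same acceptor, 11374446, had a PSI of 0.52 with S34F and 0.38 with wild-type, at a Bayes factor of 0.67. The event with the next largest Bayes factor is an alternative 3′ splice site, where 11314116 is joined to 11322680 or 11322723, with a PSI of 0.25 and 0.60, a Bayes factor of 1.79 and 18 and 20 reads. A skipped exon event at the same acceptor, 11322680, had a PSI of 0.67 with S34F and 0.32 with wild-type. Its Bayes factor was 1.4, with 10 and 6 reads. A skipped exon starting at 11354778 had a PSI of 0.39 with S34F and 0.67 with wild-type, at a Bayes factor of 1.11, and one starting at 11340836 had 0.78 and 0.54, at 1.05. All of these Bayes factors were under the threshold of 5, so the differences in PSI were not resolved in this comparison. The tables list the same 432 and 694 reads for several ATG7 events, so these reads are not specific to 1 event.

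Among the other conjugation genes, ATG10 and ATG16L1 had events with a Bayes factor between 1 and 2. In ATG10, 6 of 9 events differed by at least 0.10, and the largest Bayes factor, 1.84, was that of an exon starting at 81272012 on chromosome 5, with a PSI of 0.45 with S34F and 0.21 with wild-type. A NAGNAG event of ATG10, where 81272012 and 81272015 compete, had a PSI of 0.21 with S34F and 0.52 with wild-type at a Bayes factor of 1.24. In ATG16L1, 4 of 16 events differed by at least 0.10. Its largest Bayes factor, 1.96, was that of the intron between 234181698 and 234182367 on chromosome 2, where the spliced form is listed first, with a PSI of 0.82 with S34F and 0.94 with wild-type. An alternative 3′ splice site of ATG16L1, where 234200774 and 234200779 compete, had a PSI of 0.09 with S34F and 0.40 with wild-type at a Bayes factor of 1.86. None of these was called.

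In 4 genes no event differed by 0.10 in PSI. SQSTM1 had 9 events with up to 7975 reads with S34F and 11253 with wild-type, and the largest Bayes factor was 0.09. The 3 events of ATG3, the 4 of ATG5 and the 6 of ATG12 had largest Bayes factors of 0.05, 0.18 and 0.26. MAP1LC3B had 1 event among 4 that differed by at least 0.10, at a Bayes factor of at most 0.33.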

How the data were processed

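RNA-Seq reads of 9 HCC78 libraries were trimmed and aligned by the authors with STAR 2.3.0, and gene values were computed with RSEM 1.2.29. The submitters' processing notes name the builds GRCh37 and hg19. The authors deposited FPKM and TPM values per gene and no read counts, so the depth is unknown and count models could not be used. The authors also deposited MISO results for 5 kinds of splicing event, with PSI as a fraction, the Bayes factor as a score and counts of reads, for S34F against wild-type without replicates. PSI was taken as the share of the first listed form, which the tables do not state.

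The 15179 genes that averaged at least 1 FPKM were fitted on the scale of log2(FPKM + 1) with limma 3.58.1 (lmFit, eBayes with a trend, two-sided) in R 4.3.3, in 1 fit of the 5 groups without covariates. The p-values were adjusted by Benjamini-Hochberg over all genes tested, with a threshold of 0.05, and intervals are 95% intervals of the fit. The fit was also run on simulated data with planted changes larger than those of the autophagy genes. That run does not show the power for changes of their size. Strand was taken from RefSeq gene records, and Python 3.11.15 was used for the tables.

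The members and lists were chosen with earlier results of these data known. Genes named from the wider list are up to 3 in each direction with the largest change, a mean of at least 5 FPKM in the dox+ libraries and no overlap, and any gene called. The genes most like ATG7 are the 5 with the highest correlation. Other genes and events were named after their values were seen. Alternatives covered the pseudocount, the FPKM minimum, scaling, TPM, a replicate block, the libraries and genes in the fit, and the event thresholds. The 2 iCLIP libraries were not used here. A withheld item is not reported here.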

Additional observations from a re-analysis of the deposited data

How the results depend on the processing

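Of 420 fold changes recomputed under alternatives for 24 results on single genes, 398 kept their direction and side of the threshold and 22 changed direction. The count of the 10 autophagy genes called by limma was 0 in all 4 comparisons under every alternative that could be fitted, which also holds with a replicate block, where 5 genes of all genes tested were called in S34F dox+ against WT dox+ in place of 8. The correlations of replicate differences between groups ran from -0.0756 to 0.0374 over 15179 genes, so no large shared effect of the replicate number was seen. They cannot show whether libraries with the same number were handled together. With protein-coding genes only, 1 gene of the wider list (CTSD) was called in WT dox- against parental, where 58 of the 11993 genes tested were called. At a Bayes factor of at least 1 the called events numbered 19, and at 20 they numbered 0. The share of all events called at these thresholds is not given here. At any difference in PSI, 18.5% of the events used had a Bayes factor of at least 1, against 21.5% of all events. Small fold changes turned with the scaling: for ATG5 in S34F dox+ against WT dox+ to -0.0093 (median-ratio scaling), -0.094 (TPM) and -0.0075 (quantile), for ATG7 in WT dox+ against WT dox- to -0.013 (median-ratio) and -0.022 (quantile), and for ATG7 in the difference of responses to -0.017, -0.13 and -0.0044. TPM moved the median of all genes from 0.029 to -0.074 in S34F dox+ against WT dox+. The causes were not tested. Leaving out 1 library at a time gave ranges in S34F dox+ against WT dox+ of -0.12 to 0.15 for ATG5, -0.32 to 0.10 for ATG12, -0.29 to 0.19 for ATG13, -0.091 to 0.40 for MAP1LC3B and -0.19 to 0.094 for BECN1. ATG7 ranged from 0.065 to 0.25 there, from -0.069 to 0.12 in WT dox+ against WT dox- and from -0.076 to 0.11 in the difference of responses, which could not be fitted without the S34F dox- library. The lone library left in a group was assumed to vary like the other groups.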

Other observations

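Of the 4 entries on the strand opposite to the gene they are listed under, 1 had a Bayes factor above that of all but 3 of the events used. It is a retained intron listed under both SQSTM1 and C5orf45, with a PSI of 0.30 with S34F and 0.49 with wild-type U2AF1, a Bayes factor of 3.90 and 460 and 553 reads. It lies on the strand of C5orf45, so it was left out of the events of SQSTM1, and it was not called. The other 3 were a pair listed under ATG10 and RPS23 and 1 listed under BECN1 and PSME3.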
